A study of Macaca fascicularis with 4 samples.

Results

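The KLHL, KBTBD, FBXO and TRIM genes encode parts of ubiquitin ligases, and 81 of them were measured in liver, muscle and 2 fat tissues of the cynomolgus monkey (Macaca fascicularis). They were chosen by name, as gene names made of 1 of these 4 family stems and a number, and selected on their measured counts, with at least 10 summed over the libraries. The 81 genes comprised 22 KLHL, 6 KBTBD, 19 FBXO and 34 TRIM genes, out of 13982 named genes in all. Of 107 names of this form in the data, 26 fell below the minimum. The groups were muscle, liver and 2 tissues labelled oWAT and sWAT. WAT commonly stands for white adipose tissue, while the prefixes are not spelled out in the labels. The deposited data name the same tissues eWAT and iWAT, so label and name disagree on the depot, and the labels were followed (oWAT for eWAT, sWAT for iWAT). Each tissue was 1 full-length RNA library made from pooled RNA of 5 monkeys, with no treatment, age, sex or diet given for the animals in the labels. There were thus no replicates, no p-value can be given, and intervals cover counting error only. A difference between tissues cannot be told apart from a difference between single libraries. In whole tissue, a higher level may reflect more cells of a type or more RNA per cell, which cannot be told apart either.

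A ubiquitin ligase attaches the small protein ubiquitin to a chosen substrate, which often marks it for the proteasome. KLHL and KBTBD proteins carry a BTB domain that docks on the scaffold CUL3 and Kelch repeats that bind the substrate. FBXO proteins carry an F-box that docks on SKP1 in the CUL1-based SCF ligase. TRIM proteins are mostly single-chain ligases with a RING domain, followed by B-box and coiled-coil regions. In striated muscle, members of these families are known for the upkeep of the sarcomere, for the loss of muscle mass in atrophy and for membrane repair, and many TRIM proteins act in antiviral defence.

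Gene counts totalled 439872 in muscle, 437587 in liver, 396797 in oWAT and 383896 in sWAT, and levels are given as CPM, each gene's count scaled to these totals. The tissue labels matched their marker genes: myofibre markers summed to 144631 CPM in muscle, against 133 in liver, 108 in oWAT and 115 in sWAT. Hepatocyte markers summed to 211005 CPM in liver, and adipocyte markers to 20124 CPM in oWAT and 23889 CPM in sWAT. A count of 0 allows up to 3 counts, which is 6.82 CPM in muscle, 6.86 in liver, 7.56 in oWAT and 7.81 in sWAT. The 81 genes took 0.787% of the muscle counts (exact 95% binomial interval 0.761 to 0.814). They took 0.197% in liver (0.184 to 0.2101), 0.368% in oWAT (0.3496 to 0.388) and 0.341% in sWAT (0.323 to 0.3605).

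A gene was called higher in a tissue when it had at least 10 counts there and the exact 95% interval of its fold lay above 2 against each of the other libraries. By this rule 15 members were higher in muscle than in liver, oWAT and sWAT, and these are called muscle-restricted here. They were 6 KLHL genes, 1 KBTBD gene, 3 FBXO genes and 5 TRIM genes. They made up 29.4% of the 51 members with at least 10 muscle counts, beside 6.71% of all genes with that many counts (390 of 5809). Because the muscle values themselves chose these genes, their folds are a description. All 15 calls were kept with each of the 3 other scalings of the libraries. The 15 genes together had 2220 counts in muscle, against 40 in liver, 69 in oWAT and 53 in sWAT. The other 66 members had 1243 counts in muscle, against 820 in liver, 1392 in oWAT and 1258 in sWAT.

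**Figure D1:**
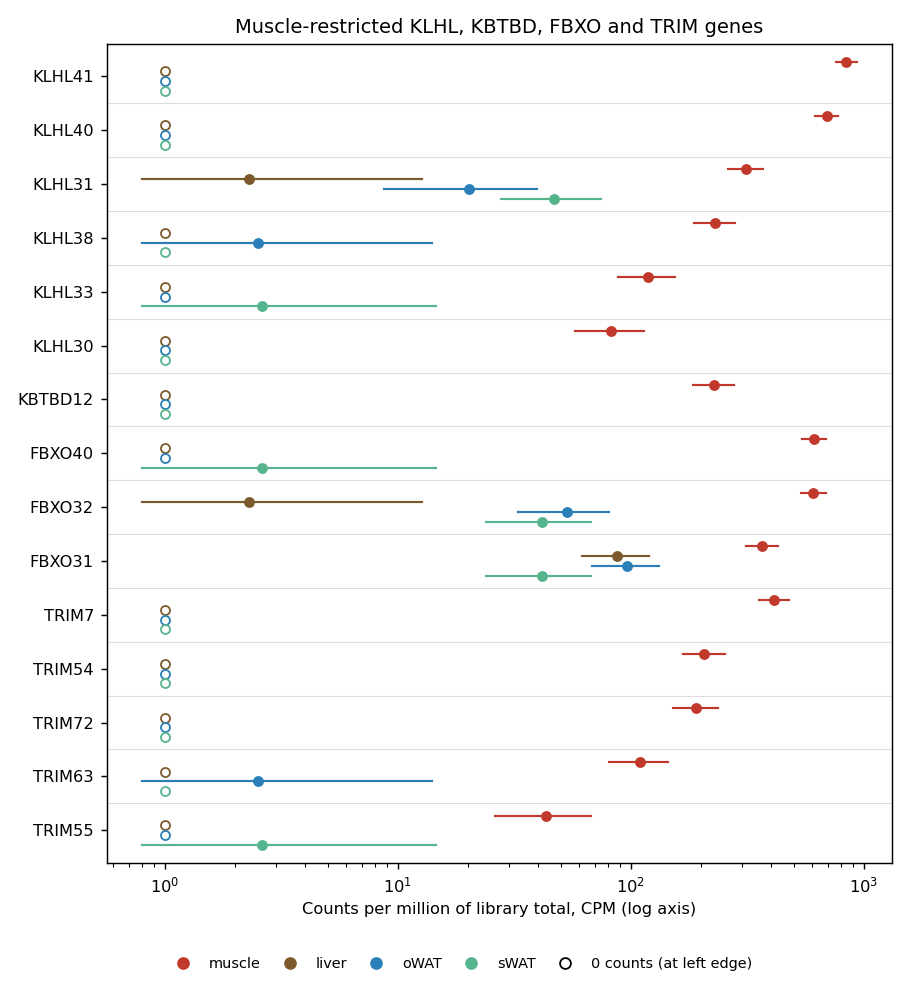
Levels of the 15 muscle-restricted genes in CPM on a log axis, with 1 point per library and exact 95% Poisson intervals, which are cut at the left edge where they run lower. Open circles mark 0 counts. The muscle point lies to the right of the other 3 for every gene, and only FBXO31, FBXO32 and KLHL31 have more than 1 count in any other library.

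The muscle-restricted Kelch genes were led by KLHL41 and KLHL40, both known from human nemaline myopathy. KLHL41, which acts in myofibril assembly, had 370 counts in muscle (841 CPM, exact 95% Poisson interval 758 to 931), against 0 in each of liver, oWAT and sWAT. KLHL40, which is known to stabilise the thin-filament proteins nebulin and LMOD3, had 304 counts in muscle (691 CPM, 616 to 773), also against 0 in the other 3 libraries. With 3 counts standing in for 0, muscle levels were at least 108-fold (KLHL41) and 88.4-fold (KLHL40) those of sWAT. Here and below such "at least" values rest on that floor alone and leave out the counting error of the muscle count. With that error, the exact 95% lower bounds over sWAT were 87.1 (KLHL41) and 71.5 (KLHL40). Muscle was the only library in which reads of either gene were found.

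KLHL38 had 101 counts in muscle, 0 in liver, 1 in oWAT and 0 in sWAT, at least 29.4-fold above sWAT. KLHL33 had 52 counts in muscle, 0 in liver, 0 in oWAT and 1 in sWAT, at least 15.6-fold above oWAT. KLHL30 had 36 counts in muscle and 0 in the other 3, at least 10.5-fold above sWAT. The single KBTBD gene of the set, KBTBD12, had 100 counts in muscle and 0 in the other 3, at least 29.1-fold above sWAT. Less is known of what these 4 proteins do than of KLHL40 and KLHL41, but their pattern across the 4 libraries was the same: reads in muscle and no more than 1 elsewhere.

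KLHL31, which in mice is needed for sarcomere integrity, was graded rather than absent outside muscle. It had 137 counts in muscle (311 CPM), 1 in liver (2.29 CPM), 8 in oWAT (20.2 CPM) and 18 in sWAT (46.9 CPM). Muscle was 6.64-fold higher than sWAT (4.05 to 11.5) and 15.4-fold higher than oWAT (7.62 to 36.5). The sWAT library was itself 20.5-fold higher than liver (3.24 to 855), a wide interval since liver had 1 count.

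Among the F-box genes, FBXO40 and FBXO32 had nearly the same number of muscle counts but different patterns outside muscle. FBXO40, which in mouse muscle cells targets the insulin receptor substrate IRS1, had 269 counts in muscle, 0 in liver, 0 in oWAT and 1 in sWAT, at least 80.9-fold above oWAT. FBXO32, or atrogin, the F-box protein induced in muscle atrophy, had 267 counts in muscle (607 CPM), 1 in liver (2.29 CPM), 21 in oWAT (52.9 CPM) and 16 in sWAT (41.7 CPM). Muscle FBXO32 was 11.5-fold higher than oWAT (7.35 to 18.8), 14.6-fold higher than sWAT (8.80 to 25.9) and 266-fold higher than liver (47.3 to 10529.9).

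FBXO32 was thus present in both fat libraries. It was 23.2-fold higher in oWAT than in liver (3.72 to 958) and 18.2-fold higher in sWAT than in liver (2.83 to 765). It was the 1 member of 28 tested that was lower in liver than in each other library, beside 11.8% of all genes tested, and neither TMM nor DESeq2 scaling kept that call. Of 11 myofibre markers, 4 had reads in oWAT (DES, TTN, RYR1 and ACTN2), and 4 had reads in liver. In oWAT ACTA1, MYH1, MYH7, CKM, NEB, MYBPC1 and CASQ1 had 0 counts. In sWAT 6 of the 11 were seen, with 1 count each of ACTA1 and CKM and 0 of MYH7, NEB, MYBPC1, CASQ1 and ACTN2. All 6 smooth muscle and pericyte markers were detected in each library. They summed to 1283 CPM in oWAT, 1993 CPM in sWAT, 1114 CPM in muscle and 103 CPM in liver. The part of either cell type in the FBXO32 and KLHL31 levels was not tested.

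FBXO31, an F-box protein known from the DNA damage response, was the least restricted of the 15. It had 161 counts in muscle (366 CPM), 38 in liver (86.8 CPM), 38 in oWAT (95.8 CPM) and 16 in sWAT (41.7 CPM). The muscle level was 3.82-fold that of oWAT (2.67 to 5.60), 4.21-fold that of liver (2.94 to 6.17) and 8.78-fold that of sWAT (5.25 to 15.7). Each of the other 3 libraries held FBXO31 reads, and muscle lay above all of them.

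The 5 muscle-restricted TRIM genes were the 3 MuRF genes, TRIM72 and TRIM7. The MuRF proteins are RING ligases of the sarcomere, and TRIM63 (MuRF1) is, with FBXO32, the classical atrophy gene. TRIM63 had 48 counts in muscle, 0 in liver, 1 in oWAT and 0 in sWAT, at least 14.0-fold above sWAT. TRIM55 (MuRF2) had 19 counts in muscle, 0 in liver, 0 in oWAT and 1 in sWAT, at least 5.71-fold above oWAT. TRIM54 (MuRF3) had 91 counts in muscle and 0 in the other 3, at least 26.5-fold above sWAT. The 3 MuRF genes are related copies, and the sources used here do not say how reads shared between related genes were counted.

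TRIM72, which takes part in resealing of the muscle cell membrane, had 84 counts in muscle and 0 in the other 3 libraries, at least 24.4-fold above sWAT. TRIM7, whose protein binds glycogenin, the primer of glycogen synthesis, had 181 counts in muscle and 0 in the other 3, at least 52.7-fold above sWAT. Together the 5 TRIM genes had 423 counts in muscle, against 0 in liver, 1 in oWAT and 1 in sWAT.

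Of the 15 genes, 7 had 0 counts outside muscle, 5 had 1 count and 3 had more (FBXO31, FBXO32 and KLHL31). The genes with none outside muscle were 46.7% of the 15. Among all 390 genes called higher in muscle, 26.9% had 0 counts outside muscle and 64.4% had 2 or more.

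**Figure D2:**
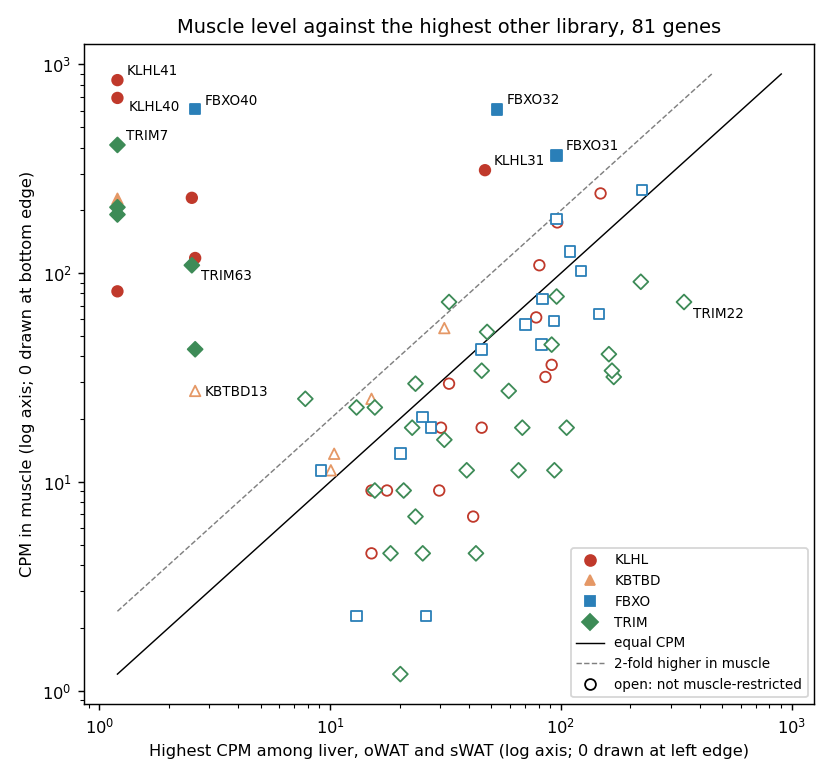
Each of the 81 genes by its muscle CPM (vertical, log axis) and the highest CPM among liver, oWAT and sWAT (horizontal, log axis); filled symbols are the 15 muscle-restricted genes and colours mark families. Of the filled symbols, 12 lie toward the left edge, with no more than 1 count in any other library, while FBXO31, FBXO32 and KLHL31 lie among genes seen in other tissues.

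Just outside the call stood KBTBD13, the third nemaline myopathy gene of these families, with 12 counts in muscle, 0 in liver, 0 in oWAT and 1 in sWAT. Its lower bound over sWAT was 1.55, below the required 2, and the next lowest bounds inside the call were 2.64 for TRIM55 and 2.67 for FBXO31. KBTBD13 passed with TMM scaling. TRIM3, known from brain, had 32 counts in muscle, 10 in liver, 13 in oWAT and 12 in sWAT. Its fold over oWAT was 2.22 (1.13 to 4.61) and it was not called. TRIM45 had 11 counts in muscle, 1 in liver, 2 in oWAT and 3 in sWAT, with a fold over sWAT of 3.20 (0.845 to 17.9). At the minimum for inclusion, KLHL11 entered with 10 summed counts (2 in muscle, 0 in liver, 6 in oWAT and 2 in sWAT). KLHL4, with 9 (0 in muscle, 1 in liver, 8 in oWAT and 0 in sWAT), did not.

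In the gene order of the RefSeq assembly T2T-MFA8v1.1, FBXO32 and KLHL38 were immediate neighbours among protein-coding genes, and both were muscle-restricted. TRIM7 stood next to TRIM41, which had 13 counts in muscle, 9 in liver, 7 in oWAT and 9 in sWAT and was not called. KLHL40 stood next to HHATL, which had 42 counts in muscle and 0 in the other 3 libraries. The 15 genes had 11 distinct neighbours with at least 10 muscle counts. Of these 3 were called higher in muscle, beside 6.71% of all genes. They were FBXO32 and KLHL38, members whose muscle calls had already placed them in the set, and HHATL, the 1 called neighbour outside the families. The share of called neighbours is thus a description only.

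The partners of the muscle-restricted proteins were looked up from a list of 24 genes known as substrates or binding partners of muscle Kelch, F-box and TRIM proteins. Of 20 tested, 18 were higher in muscle, beside 6.71% of all genes. ACTA1, CKM, TTN, NEB, MYBPC1 and RYR1 of this list are also the myofibre markers used above for the muscle label. The list was thus made largely of known muscle proteins, and its share and medians are a description only. The most abundant were the sarcomere proteins ACTA1, with 15827 muscle counts, MYBPC1, with 13941, and TTN, with 5053, and the energy enzyme CKM, with 3472. NEB, the nebulin bound by KLHL40, had 3441 counts in muscle and 0 in the other 3 libraries. LMOD3, the thin-filament leiomodin also bound by KLHL40, had 279 in muscle and 0 in the other 3. MYOD1, a myogenic transcription factor that is a substrate of FBXO32, had 84 in muscle and 0 in the other 3. FLNC, the filamin that KLHL31 acts on in mice, had 248 in muscle, 0 in liver, 43 in oWAT and 40 in sWAT, and was 5.20-fold higher in muscle than in oWAT (3.75 to 7.37). The fat libraries held FLNC reads as well as KLHL31 reads, and FLNC was also lower in liver than in each other library. MYH9, a non-muscle myosin, was higher in both fat libraries (692 oWAT and 1187 sWAT counts, against 243 liver and 277 muscle counts), a call that TMM and DESeq2 scaling did not keep. IRS1, the FBXO40 substrate, had 1 count in oWAT and 0 in muscle, liver and sWAT. The median log2 ratio of this list was 8.02 for muscle over liver, 7.33 over oWAT and 7.24 over sWAT, beside 0.48, -0.54 and -0.37 over all 10127 genes with at least 10 summed counts.

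No gene of the shared core of these ligases was called muscle-restricted. None of 11 cullin and SCF core genes was called in any comparison, beside 6.71% of all genes for higher in muscle. With 11 genes tested, 0 calls are not far from that share. The most abundant, the scaffold CUL4A, had 244 counts in muscle, 135 in liver, 137 in oWAT and 104 in sWAT. CUL3, the scaffold of the Kelch proteins, had 19 counts in muscle, 7 in liver, 13 in oWAT and 8 in sWAT. SKP1, the adaptor of the F-box proteins, had 41 in muscle, 16 in liver, 29 in oWAT and 15 in sWAT, and CUL1 had 161 in muscle, 67 in liver, 116 in oWAT and 97 in sWAT. For CUL3, SKP1 and CUL1 muscle had the most counts, with folds over oWAT of 1.32 (0.618 to 2.90) for CUL3, 1.28 (0.774 to 2.13) for SKP1 and 1.25 (0.980 to 1.60) for CUL1. The 11 core genes had a median log2 ratio of 1.25 for muscle over liver, 0.10 over oWAT and 0.53 over sWAT. Over all 10127 genes these medians were 0.48, -0.54 and -0.37. Of 8 measured subunits of the COP9 signalosome, which removes the activating NEDD8 tag from cullins, 0 were higher in muscle (6.71% of all genes). Their median log2 ratio was 1.39 for muscle over liver, 0.43 over oWAT and 0.69 over sWAT. COPS8 was lower in liver, with 10 liver counts, 56 muscle counts, 44 oWAT counts and 42 sWAT counts, which neither TMM nor DESeq2 scaling kept.

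Factors that exchange or activate cullins held 2 genes higher in muscle among 9 tested, beside 6.71% of all genes. CAND2, an exchange factor described as muscle-enriched in rodents, had 136 counts in muscle, 0 in liver, 8 in oWAT and 3 in sWAT, 15.3-fold higher than in oWAT (7.57 to 36.2). DCUN1D2, a factor that helps attach NEDD8 to cullins, had 152 in muscle, 10 in liver, 7 in oWAT and 11 in sWAT, 12.1-fold higher than in sWAT (6.55 to 24.7). The median log2 ratio of the 10 genes measured was 0.86 for muscle over liver, 0.65 over oWAT and 0.64 over sWAT.

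Other ligase families were counted in the same way, with no test between them, beside 6.71% of all genes tested. ASB proteins, which use a SOCS box to join the CUL5 scaffold, had 9 of 13 tested genes higher in muscle. ASB2 had 991 counts in muscle, 0 in liver, 6 in oWAT and 2 in sWAT, 149-fold higher than in oWAT (68.2 to 407). ASB5 had 246 in muscle, 0 in liver, 1 in oWAT and 1 in sWAT. ASB16 had 227 and ASB15 156 in muscle, both with 0 in the other 3. ASB13 was the exception, higher in liver, with 97 liver counts, against 24 muscle, 16 oWAT and 15 sWAT counts (4.06-fold over muscle, 2.58 to 6.64).

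Of 9 tested FBXL and FBXW genes, the other F-box families, 1 was higher in muscle. It was FBXL4, known from mitochondrial DNA maintenance, with 151 counts in muscle, 19 in liver, 23 in oWAT and 14 in sWAT (5.92-fold over oWAT, 3.80 to 9.63). Of 16 tested ligases studied in muscle protein turnover, 1 was higher, WWP1, with 220 counts in muscle, 68 in liver, 56 in oWAT and 53 in sWAT (3.22-fold over liver, 2.44 to 4.29). MDM2, of the same list, was lower in liver, with 9 liver, 48 muscle, 36 oWAT and 36 sWAT counts, and this call too was lost by both scalings. Of 3 measured Kelch genes that go by other names, 0 were called in any comparison, and the most abundant, IVNS1ABP, had 233 counts in muscle, 65 in liver, 115 in oWAT and 109 in sWAT.

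Of 13 tested regulators of atrophy and muscle identity, 4 were higher in muscle, beside 6.71% of all genes. They were the signal transducer SMAD3, with 201 counts in muscle, 4 in liver, 33 in oWAT and 42 in sWAT, and the transcription factor MEF2C, with 150 in muscle, 5 in liver, 30 in oWAT and 42 in sWAT. Both were also lower in liver than in each other library, though not with TMM or DESeq2 scaling. MYOG (myogenin) had 43 in muscle, 0 in liver, 1 in oWAT and 0 in sWAT, and MSTN (myostatin) had 16 in muscle and 0 in the other 3. FOXO1, which activates FBXO32 and TRIM63 in atrophy, had 21 counts in muscle, 6 in liver, 5 in oWAT and 3 in sWAT and was not called. FOXO3 had 29 in muscle, 8 in liver, 19 in oWAT and 13 in sWAT and was not called either. KLF15, a glucocorticoid-responsive factor, was higher in liver, with 41 liver counts, against 3 muscle, 2 oWAT and 3 sWAT counts.

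The 66 members that were not muscle-restricted had a median of 11 counts in muscle, 8 in liver, 12.5 in oWAT and 10 in sWAT. At these depths most differences could not be resolved. In 50 of the 66 genes (75.8%) no pair of libraries differed by the calling rule, against 63.8% of all 9737 genes with at least 10 summed counts that were not called higher in muscle. The median summed count was 41 for the members and 58 for those genes, so the members also had less depth. The comparison of single pairs was added after the data were seen.

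CPM values carry a shift between libraries that affects these small differences. Over all 10127 genes the median log2 ratio was 0.48 for muscle over liver, -0.54 for muscle over oWAT and -0.37 for muscle over sWAT. It was -0.98 for liver over oWAT, -0.75 for liver over sWAT and 0.14 for oWAT over sWAT. With TMM scaling these medians lay between -0.01 and 0.11. The library with the highest CPM was muscle for 19 of the 66 members (28.8%), liver for 6 (9.09%), oWAT for 26 (39.4%) and sWAT for 15 (22.7%). Over all genes these shares were 20.6% for muscle, 16.2% for liver, 37.7% for oWAT and 25.5% for sWAT. With TMM scaling the members' numbers were 26 for muscle, 17 for liver, 12 for oWAT and 11 for sWAT, so the order of the tissues turned with the scaling.

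The medians of the non-restricted families are given beside that shift, and no difference between families was tested. The 16 FBXO genes had a median log2 ratio of -0.07 for muscle over oWAT (order-statistic interval -0.65 to 0.77), 0.52 above that of the 9737 genes. For muscle over sWAT their median was 0.26 (-0.31 to 0.94), 0.69 above those genes. The 29 TRIM genes had a median of -0.57 for muscle over oWAT (-1.85 to -0.15), 0.02 above the 9737 genes, and of -0.73 over sWAT (-1.60 to 0.31), 0.30 below them. The 16 KLHL genes lay 0.08 above those genes for muscle over oWAT and 0.23 above for muscle over sWAT. The 5 other KBTBD genes had their highest CPM in muscle in 5 of 5 cases, with a median 1.27 above the 9737 genes for muscle over oWAT and 1.95 above for muscle over sWAT. This set was too small for an interval, and its median counts were 2 in liver, 4 in oWAT and 3 in sWAT. With 0 counts set to 3, its muscle over sWAT median fell from 1.52 to 0.80. That of the 9737 genes went from -0.43 to -0.41. The distances from the 9737 genes do not change with the scaling, while the medians themselves do. With TMM scaling the muscle over oWAT median was 0.49 for FBXO, 0.05 for KLHL and -0.01 for TRIM genes.

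**Figure D3:**
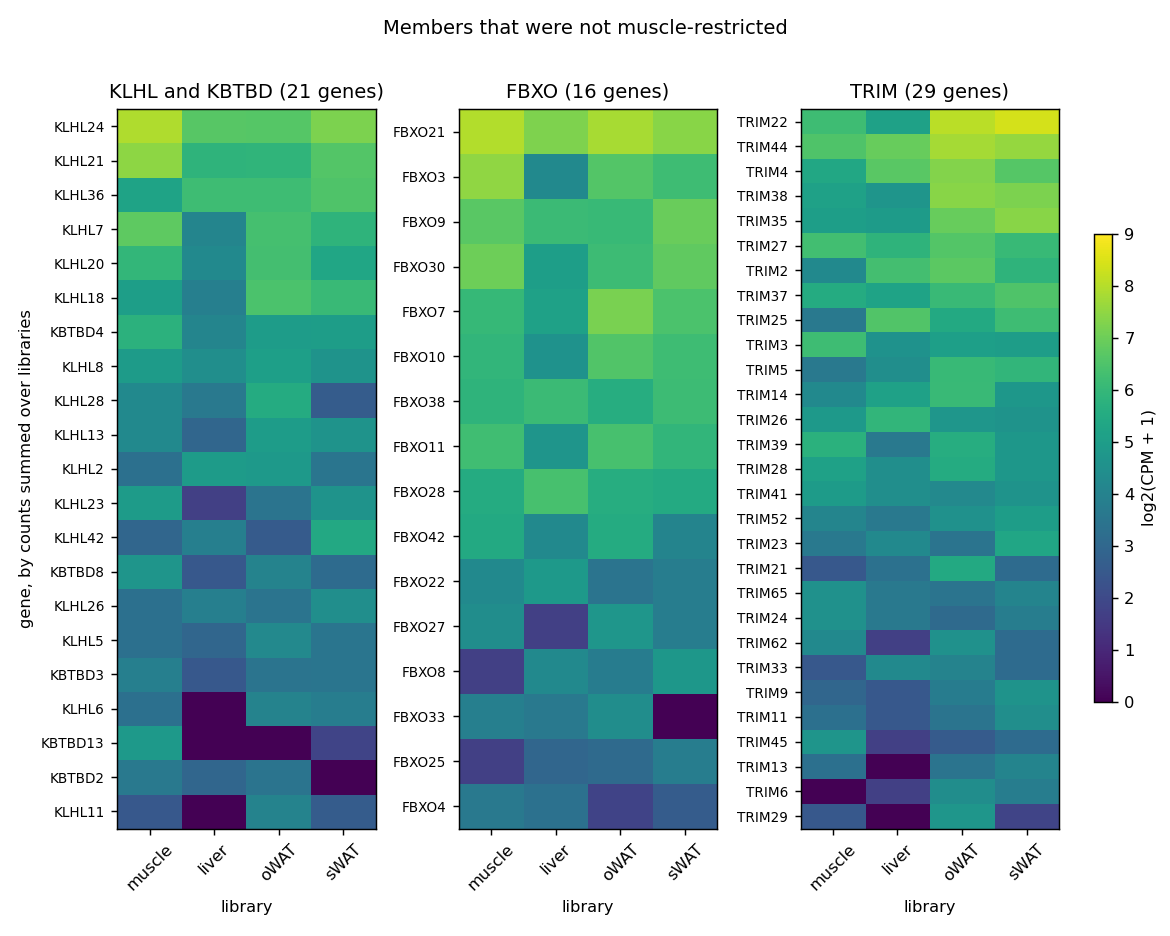
Levels of the 66 members that were not muscle-restricted, as log2(CPM + 1), in columns for the 4 libraries and in panels by family, ordered by summed counts. Within their own rows, TRIM22, TRIM38 and TRIM35 are brighter in both fat columns than in liver and muscle. The liver column is the darkest for KLHL7, KLHL18 and FBXO3.

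Among Kelch genes, the most abundant non-restricted member was KLHL24, known from keratin turnover in skin. It had 106 counts in muscle, 44 in liver, 39 in oWAT and 57 in sWAT, 1.62-fold higher in muscle than in sWAT (1.17 to 2.28), which was not enough for a call. KLHL21, which acts in cell division, had 77 in muscle, 25 in liver, 23 in oWAT and 37 in sWAT, 1.82-fold over sWAT (1.21 to 2.77). Both lay above all 3 other libraries by more than counting error but by less than the required bound.

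KLHL7, a CUL3 adaptor known from a retinal dystrophy, had 48 counts in muscle, 7 in liver, 32 in oWAT and 22 in sWAT. It was 6.82-fold higher in muscle than in liver (3.07 to 17.9) and 5.04-fold higher in oWAT than in liver (2.19 to 13.5). KLHL18, a regulator of cell division, had 34 oWAT and 26 sWAT counts, against 6 liver and 14 muscle counts, 6.25-fold higher in oWAT than in liver (2.59 to 18.2). In the small KBTBD family, KBTBD4 had 24 in muscle, 7 in liver, 12 in oWAT and 12 in sWAT, and KBTBD8, which acts in neural crest formation, had 11 in muscle, 2 in liver, 6 in oWAT and 3 in sWAT. Neither KBTBD gene was called in a pair.

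The FBXO gene with the most summed counts, FBXO21, had 110 counts in muscle, 66 in liver, 89 in oWAT and 65 in sWAT. Its muscle level was 1.11-fold that of oWAT (0.835 to 1.49) and 1.66-fold that of liver (1.21 to 2.29). FBXO3 had 80 in muscle, 8 in liver, 38 in oWAT and 28 in sWAT. It was 9.95-fold higher in muscle than in liver (4.81 to 23.8), 1.90-fold over oWAT (1.28 to 2.87) and 2.49-fold over sWAT (1.60 to 3.98). It lay above all 3 other libraries by more than counting error but was not called. FBXO30, which is induced in atrophying mouse muscle, had 56 in muscle, 14 in liver, 28 in oWAT and 42 in sWAT, 3.98-fold higher in muscle than in liver (2.19 to 7.74). FBXO7, known from mitophagy and an inherited parkinsonism, had 58 oWAT and 33 sWAT counts, against 15 liver and 28 muscle counts, 4.26-fold higher in oWAT than in liver (2.39 to 8.10).

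Over liver, 4 of 36 tested non-restricted members were called higher in muscle (FBXO3, FBXO30, KBTBD13 and KLHL7), beside 23.0% of all genes in that pair. Over oWAT 1 of 36 was called higher in muscle (KBTBD13), beside 8.3% of all genes, and over sWAT 0 of 36, beside 9.23%. The muscle-restricted genes are left out of these counts but not of the percentages. Over liver, 8 of 39 were called higher in oWAT, beside 25.8% of all genes, and 3 of 34 in sWAT, beside 24.2%. Over all members, 19 of 51 were called higher in muscle than in liver, 16 than in oWAT and 15 than in sWAT. The 15 muscle-restricted genes are in each of these counts. The oWAT count over liver became 1 with TMM and with DESeq2 scaling.

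In both fat libraries 3 of 32 tested members were higher than in liver and in muscle, beside 4.22% of all genes. All 3 were TRIM genes, which made up 14 of the 32 tested. TRIM22, an interferon-induced antiviral TRIM protein, had 105 oWAT counts (265 CPM) and 131 sWAT counts (341 CPM), against 15 liver counts (34.3 CPM) and 32 muscle counts (72.7 CPM). Its smallest fold was 3.64 for oWAT over muscle (2.43 to 5.59). TRIM38, a regulator of innate immune signalling, had 66 oWAT and 57 sWAT counts, against 11 liver and 15 muscle counts, with a smallest fold of 4.35 for sWAT over muscle (2.43 to 8.28). TRIM35 had 47 oWAT and 65 sWAT counts, against 13 liver and 14 muscle counts, with a smallest fold of 3.72 for oWAT over muscle (2.01 to 7.32). For each of the 3, both fat libraries lay above liver and muscle.

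These 3 calls depended on the scaling, though their direction did not. With TMM factors the smallest folds were 2.46 for TRIM22 (1.64 to 3.78), 3.26 for TRIM38 (1.69 to 6.90) and 1.99 for TRIM35 (lower bound 1.06), and 0 of 3 calls were kept. With DESeq2 size factors 0 of 3 were kept as well. PML, a TRIM gene under another name, had 79 oWAT and 77 sWAT counts, against 17 liver and 28 muscle counts. It was the 1 of 2 such genes tested that was called in both fat libraries, beside 4.22% of all genes. The PML call was also lost with both scalings.

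**Figure D4:**
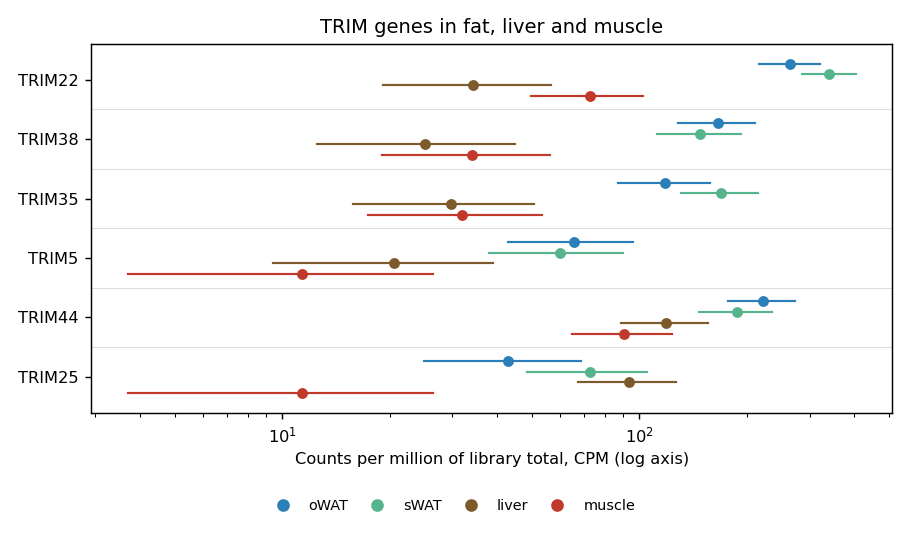
Levels of 6 TRIM genes in CPM on a log axis, with exact 95% Poisson intervals and 1 point per library. TRIM22, TRIM38 and TRIM35 have both fat points to the right of liver and muscle, while TRIM25 has its highest point in liver and its lowest in muscle.

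TRIM5, which recognises retroviral capsids and is the immediate gene neighbour of TRIM22 in the RefSeq order, had 26 oWAT and 23 sWAT counts, against 9 liver and 5 muscle counts. It was 5.76-fold higher in oWAT than in muscle (2.18 to 19.2). TRIM6, with 1 gene between it and TRIM5, had 8 oWAT and 5 sWAT counts, against 1 liver and 0 muscle counts. These TRIM genes are related copies, so that reads may be shared among them. TRIM44, a B-box protein without a RING, had 88 oWAT and 72 sWAT counts, against 52 liver and 40 muscle counts, 2.44-fold higher in oWAT than in muscle (1.66 to 3.64).

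In the pair of oWAT and muscle, 7 of 39 tested non-restricted members were higher in oWAT, beside 11.4% of all genes. TRIM genes made up 17 of the 39 tested, and all 7 called were among them: TRIM2, TRIM4, TRIM5, TRIM21, TRIM22, TRIM35 and TRIM38. TRIM2, a ligase for a neurofilament subunit in mice, had 42 oWAT and 22 sWAT counts, 34 liver counts and 8 muscle counts, 5.82-fold higher in oWAT than in muscle (2.70 to 14.4). TRIM4 had 64 oWAT and 38 sWAT counts, 45 liver counts and 18 muscle counts, 3.94-fold (2.31 to 7.07). TRIM21, the cytosolic antibody receptor, had 17 oWAT and 3 sWAT counts, 4 liver counts and 2 muscle counts, 9.42-fold (2.24 to 84.1). With TMM or DESeq2 scaling 0 members were called in this pair. In sWAT over muscle 4 of 34 were called (TRIM22, TRIM25, TRIM35 and TRIM38), beside 11.2% of all genes, and 2 with TMM scaling.

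Summed levels of immune cell markers were larger in the fat libraries, while of single markers 1 of 6 tested macrophage genes (CD68) and 0 of 2 tested T and B cell genes were called higher in fat. Macrophage markers summed to 1542 CPM (oWAT) and 1201 CPM (sWAT), against 535 CPM (liver) and 414 CPM (muscle), with at least 8 of 9 detected in each library. T and B cell markers summed to 114 oWAT and 59 sWAT counts, against 35 liver and 27 muscle counts, with 8 of 8 detected in oWAT, 7 in sWAT, 6 in liver and 4 in muscle, and CD3E had 0 counts in liver and muscle and 1 in each fat library. Interferon and antiviral signalling genes summed to 2810 CPM (oWAT) and 2131 CPM (sWAT), against 1460 CPM (liver) and 1255 CPM (muscle). None of the 25 measured was called in any comparison, with 24 tested for both fat libraries, beside 4.22% of all genes. Their part in the TRIM levels was not tested.

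In liver, 0 of 26 tested members were called higher than in each other library, beside 10.8% of all genes. TRIM25, which helps activate the viral RNA sensor RIG-I, had 41 liver counts (93.7 CPM), 5 muscle counts (11.4 CPM), 17 oWAT counts (42.8 CPM) and 28 sWAT counts (72.9 CPM). In the pair of liver and muscle TRIM25 was the 1 of 25 tested called higher in liver, beside 17.7% of all genes. Liver was 8.24-fold higher than muscle (3.26 to 26.7), 2.19-fold higher than oWAT (1.22 to 4.11) and 1.28-fold that of sWAT (0.775 to 2.16). The sWAT library was 6.42-fold higher than muscle (2.45 to 21.3). TRIM26 had 26 liver counts, 12 muscle counts, 10 oWAT counts and 9 sWAT counts, and liver was 2.18-fold muscle (1.06 to 4.74), 2.36-fold oWAT (1.10 to 5.48) and 2.53-fold sWAT (1.15 to 6.15). It lay above all 3 by more than counting error but was not called. No member of 23 tested was lower in muscle than in each other library, beside 2.2% of all genes.

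Between the fat tissues, 1 of 41 tested members was higher in oWAT, beside 1.43% of all genes, and 0 of 37 were higher in sWAT, beside 0.767%. KLHL28 had 18 oWAT counts and 2 sWAT counts, 8.71-fold higher in oWAT (2.08 to 77.4), with 5 in liver and 8 in muscle. With each other scaling the fold stayed between 7.66 and 8.08 while the call was lost, the lower bound being 1.88 with TMM scaling. KLHL42, which regulates a microtubule-severing enzyme, had the opposite order, with 16 sWAT counts against 2 oWAT counts, 6 in liver and 3 in muscle. Its fold for sWAT over oWAT was 8.27 (1.94 to 74.1), just under the rule, and it was called with each other scaling. For TRIM22, TRIM35 and TRIM38 the interval of the fold between the fat tissues included 1: oWAT over sWAT was 0.775 (0.594 to 1.01) for TRIM22, 0.700 (0.470 to 1.03) for TRIM35 and 1.12 (0.774 to 1.63) for TRIM38. With TMM scaling the interval lay below 1 for TRIM22 (0.699, 0.536 to 0.911) and for TRIM35 (0.631, 0.424 to 0.932).

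TRIM29, an atypical TRIM protein of epithelia, had 10 oWAT counts and 1 sWAT count, 0 in liver and 2 in muscle. Its fold for oWAT over sWAT was 9.67 (1.38 to 420), which was not called. Mesothelial markers summed to 3901 CPM in oWAT against 5.21 in sWAT, 22.9 in liver and 0 in muscle, with 6 of 7 detected in oWAT and CALB2 at 0. The TRIM29 counts outside oWAT were too few to order those libraries. The part of these markers in the TRIM29 difference was not tested. FBXO31 was 2.30-fold higher in oWAT than in sWAT (1.25 to 4.41) and was not called.

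**Figure D5:**
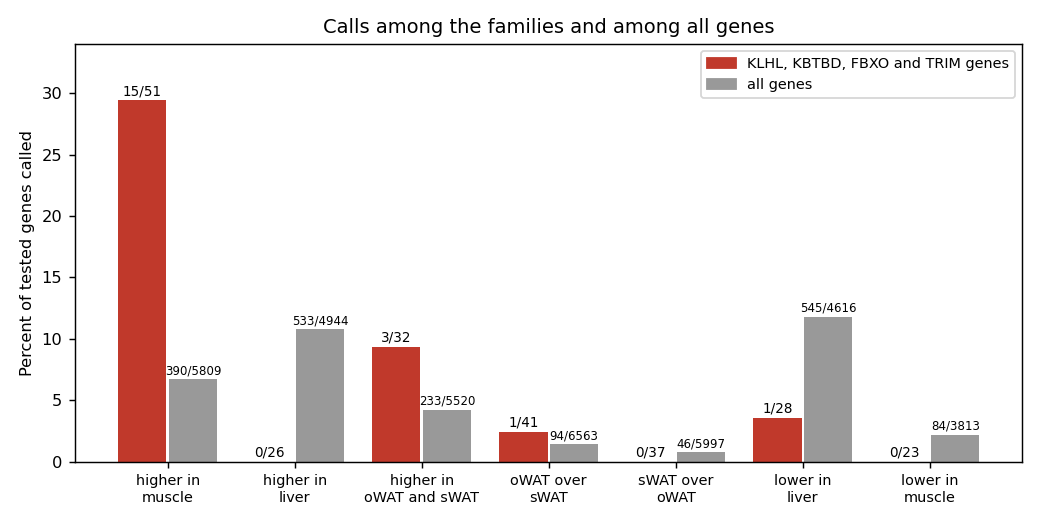
Percent of tested genes called in each comparison, for the KLHL, KBTBD, FBXO and TRIM genes (red) and for all genes (grey), with called and tested numbers above the bars. The family share exceeds that of all genes by the widest margin for muscle (15 of 51 against 390 of 5809), where the calls also defined the muscle-restricted set; it is 0 of 26 for liver.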

How the data were processed

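Gene counts of 4 Macaca fascicularis libraries were used, 1 for each tissue. Each pooled the RNA of 5 monkeys and was read full-length on the PacBio Sequel II platform, per the labels' protocols. Reads were aligned with minimap2 2.24, per the submitters' processing notes. The sources used here do not give the genome build, annotation, strand use or treatment of shared reads. The deposited values are whole-number counts that were not normalized; genes not listed in a library were taken as 0. Counts that name no gene (14.3% in muscle, 19.2% in liver, 19.5% in oWAT and 16.6% in sWAT) were left out of the totals. All 81 members matched a symbol of the RefSeq table, and 1214 genes known by identifier alone could not be placed in a family. No sequences are shown.

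Folds are ratios of CPM with exact 95% Clopper-Pearson intervals. Reads carry no molecular identifiers here, so intervals and the floor of 3 counts cover counting error only. Against 0 counts the fold was computed with the floor and is given as "at least", for the pairing with the smallest fold. It leaves out the counting error of the higher library and is not a lower bound of the interval. A gene was lower in a tissue where each other library had at least 10 counts and the interval lay below 0.5. List medians used log2 ratios after adding 0.5 counts. The scaling was varied with TMM factors (edgeR 4.0.16), size factors (DESeq2 1.42.0) and totals that left out the genes among the 10 most abundant in any library. The minimum count, the interval (99%) and the bound (1 and 4) were varied too. Both packages gave scaling factors alone. Python 3.11.15 and SciPy 1.17.1 were used. The calling rule was run on simulated Poisson counts, with changes planted only in genes of higher summed counts. These counts held no spread between animals or libraries, so that run cannot show how the rule fares with such spread or at low counts.

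The members, the gene lists and the tests were chosen with earlier results of these data known. Named were all members called in a comparison, members with every muscle fold above 2 that were not called, the 3 most abundant of each family, those near the minimum, and up to 4 genes per list. Named after their values were seen are KLHL21, KLHL42, TRIM6, TRIM26, TRIM29, TRIM41, TRIM47, KLHL3, HHATL, NEB, LMOD3, MYOD1, FLNC, MYH9, IRS1, CUL3, SKP1, ASB13, MSTN, FOXO1, FOXO3 and the members called in a single pair. Single values of 1 listed gene are not reported.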

Additional observations from a re-analysis of the deposited data

How the results depend on the processing

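The 15 muscle calls were kept with TMM, DESeq2 and top-gene scaling (16 called with TMM, with KBTBD13 added). TRIM55 was lost with a minimum of 20 counts and with the 99% interval. With a bound of 4, FBXO31 and TRIM55 were lost. The other counts were small. For both fat libraries, 3 calls became 0 under either TMM or DESeq2 scaling and with a bound of 4, and 6 with a bound of 1. For oWAT over sWAT, 1 call became 0 with the 3 other scalings, a minimum of 20, the 99% interval and a bound of 4, and 10 with a bound of 1. For sWAT over oWAT, 0 became 1 with the 3 other scalings and 3 with a bound of 1. For lower in liver, 1 became 0 with TMM, DESeq2, a minimum of 20 and a bound of 4, and 7 with a bound of 1. With a bound of 1, 0 became 1 for higher in liver and 4 for lower in muscle. The cause was not tested, beyond the construction of the stricter and looser rules. Over all genes, the fat count of 233 was 68 under TMM and 71 under DESeq2 scaling, and the lower-in-liver count of 545 was 282 and 287. Of 150 recomputed medians of the non-restricted members, 31 changed sign. Of the 120 from sets large enough for an order-statistic interval, 14 left it. No paired analysis was possible because each tissue has 1 library. Depth limits the non-restricted members, whose median was 8 to 12.5 counts per library.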

Other observations

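The 26 family names below the minimum of 10 summed counts comprised 8 KLHL, 1 KBTBD, 8 FBXO and 9 TRIM genes, and 15 of them had no more than 3 counts in all. The largest count of any of them in 1 library was 8, for KLHL4 in oWAT, against 0 in sWAT. TRIM47 had 5 counts in muscle, 0 in liver, 0 in oWAT and 3 in sWAT. KLHL3, known from salt handling in the kidney, had 4 in muscle, 0 in liver, 0 in oWAT and 5 in sWAT. Both had 0 counts in liver and oWAT, and at these depths no difference was detectable.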
